A study of Mus musculus with 17 samples.

Results

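The kidney B cells were the 3433 cells, of 61744 kept cells in 9 kidney libraries and 91829 kept cells in the 17 libraries of the series, that met a rule on 6 genes. A kept cell had at least 200 genes and at most 20% of its UMIs (unique molecular identifiers, 1 for each captured transcript) from mitochondrial genes. A B cell also held at least 3 UMIs over Cd79a, Cd79b and Ms4a1 and 0 UMIs over Cd3d, Cd3e and Cd3g. Cd79a and Cd79b encode the signalling chains of the B cell receptor, Ms4a1 encodes the surface protein CD20, and the Cd3 genes encode chains of the T cell receptor complex. The rule read these counts, so the levels of the 6 genes in the B cells are a description and not a result.

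The kidneys came from mice 8 weeks old at the start that carried PDGFRb-Cre and the Z/EG reporter, which makes green fluorescent protein (GFP) in cells where Cre has acted and in their progeny. SARATg mice also carried a Cre-activated transgene of human SARA (ZFYVE9), a protein first described as a partner of the TGF-β receptor, a role later disputed, and SARAWT mice did not. Aristolochic acid (AA), a plant toxin that injures the kidney tubule, was injected into the peritoneum at 5 mg/kg 3 times a week for 3 weeks, and controls received vehicle, which gave 3 SARAWT vehicle, 3 SARAWT AA, 2 SARATg vehicle and 1 SARATg AA libraries. Digested kidney was sorted for GFP and measured by droplet-based single-cell RNA sequencing. The driver limits the model: per the study, PDGFRb-Cre also acts in leukocytes, so a sort for GFP holds blood cells as well as pericytes. In the B cells Pdgfrb itself stood at 0 to 0.605 CPM (the gene's UMIs over all UMIs of the summed cells, on the usual CPM scale, with 1 UMI a transcript whatever its length). The labels do not say whether each library is a separate animal, so the tests measure the spread between libraries.

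B cells make antibody. A resting B cell carries IgM and IgD as surface receptors, presents antigen on class II MHC molecules, and circulates between blood and lymphoid tissue with the help of CCR7 and the sphingosine phosphate receptor S1PR1. A plasma cell, the end stage of the lineage, shuts down most of these genes, secretes 1 antibody in large amounts and often carries a switched heavy chain such as IgA, which is joined into dimers by the J chain. Kidney normally holds few B cells, and they accumulate there in many chronic inflammations.

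Zfyve9, the gene of the transgene's mouse homologue, was read first because it checks the labels. In the B cells it stood at 10.3, 22.5 and 0.893 CPM in SARAWT vehicle 1, 2 and 3, 109.8, 6.31 and 5.95 in the libraries labelled SARAWT AA 1, 2 and 3, 106 and 73.3 in SARATg vehicle 1 and 2 and 12.7 in the library labelled SARATg AA 1. These levels went against 2 labels: the library labelled SARAWT AA 1 was as high as SARATg vehicle, and the library labelled SARATg AA 1 was as low as the other SARAWT libraries. T cells of the same libraries went against the same 2 labels, with 88.6 CPM in the library labelled SARAWT AA 1 and 6.16 CPM in the library labelled SARATg AA 1. The kidney gene list holds no separate entry for the human transgene. No library was moved to another group, and the tests across all genes and the AA difference in the B cell shares are also given without them, except the difference between genotypes, which cannot then be computed.

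The libraries also differed in other ways. They held 28660151 to 137093834 UMIs and 4003 to 10057 kept cells, and 1.66% to 2.13% of the barcodes of each library recurred in another (2 of them among the B cells). Leukocytes, read as kept cells with a UMI of Ptprc (CD45), made up 14.5%, 18.04% and 75.2% in SARAWT vehicle 1, 2 and 3, 84.2%, 62.03% and 84.7% in the libraries labelled SARAWT AA 1, 2 and 3, 52.8% and 53.4% in SARATg vehicle 1 and 2 and 68.4% in the library labelled SARATg AA 1. SARAWT vehicle 3 thus stood apart from the other 2 SARAWT vehicle libraries and resembled the AA libraries. Xist was at 752 CPM in the B cells of SARAWT vehicle 2 and 946 CPM in those of the library labelled SARATg AA 1 and at most 0.446 CPM in the others, so both were from females and the rest, with Ddx3y at 32.1 to 69.2 CPM, from males.

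The marker genes that the rule did not use were found in these cells. Cd22, an inhibitory co-receptor of the B cell receptor, stood at 21.9 to 127 CPM over the 9 libraries, against 0 to 1.22 CPM in 17083 T cells (at least 3 UMIs over the Cd3 genes and none over the B cell genes) and 0.2402 to 10.3 CPM in 4632 macrophages (at least 3 UMIs over C1qa, C1qb and C1qc and none over the B and T cell genes). Pax5 and Ebf1, which set B cell identity, stood at 38.8 to 197 and 332 to 1636 CPM in the B cells and 0 to 0.406 and 0 to 7.72 CPM in the T cells. Ptprc was found in 2626 of the 3433 (76.5%). The label B cell therefore held on genes outside the rule, which is a description, since cells chosen on B cell genes carry other B cell genes too.

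Close to the threshold the cells were less clear. The 65 B cells with exactly 3 marker UMIs had a median of 5986 UMIs, held a C1q UMI in 73.8% and an Ighm or Ighd UMI in 87.7%. Outside it, the 314 cells with 2 marker UMIs held a C1q UMI in 85.4% and an Ighm or Ighd UMI in 80.3%. Immunoglobulin genes and Jchain took a median of 0.0554% of the UMIs in the 65 and 0.0405% in the 314. It was 1.74% in the 3152 Ig-low cells defined below. An Ighm UMI alone does not mark a B cell here, since 53.5% to 79.3% of macrophages held one. C1q is a product of macrophages, so cells on both sides carried transcripts of another cell type. A further 448 cells had 3 or more B cell UMIs together with a Cd3 UMI and are not among the B cells. In SARAWT vehicle 1, 2 and 3 they numbered 15, 3 and 62. In the libraries labelled SARAWT AA 1, 2 and 3 they numbered 90, 68 and 89. SARATg vehicle 1 and 2 held 34 and 26, and the library labelled SARATg AA 1 held 61. Their part in the B cell shares was not tested.

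The B cells fell into 2 kinds by how much of their RNA was antibody. Immunoglobulin genes together with Jchain (361 genes) took a median of 1.74% of the UMIs in 3152 cells and 65.8% in the other 281, and 14 cells lay between 8% and 20%. A limit of 20%, set after this distribution was seen, divides the 3433 into Ig-low and Ig-rich cells, so differences between these kinds are described without a test. Ig-low cells had a median of 3047 UMIs and 1211 genes, and Ig-rich cells 23088 UMIs and 2311 genes.

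**Figure D1:**
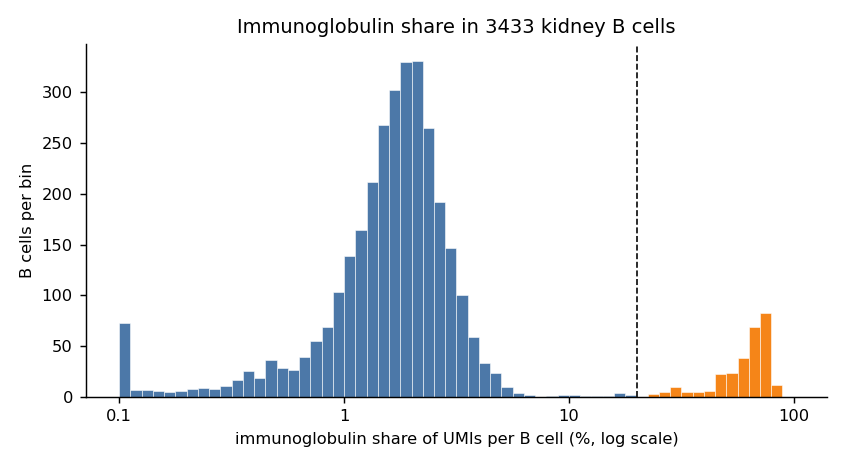
Number of B cells (vertical axis) by the percentage of their UMIs from immunoglobulin genes (horizontal axis, log scale), with the limit of 20% as a dashed line. The 3152 cells in blue peak near 2% and the 281 in orange lie to the right of the line, and the first bin at the left edge holds 73 cells, with all shares under 0.1% counted in it.

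Ig-low cells carried the receptor of resting B cells. Of 3058 with enough constant-region UMIs, IgM or IgD led in 2933 (95.9%), IgG in 69 and IgA in 56. Ighm, the constant gene of IgM (chromosome 12, 113418558 to 113422730, minus strand, GRCm38), stood at 1961, 1415 and 1921 CPM in SARAWT vehicle 1, 2 and 3, 2427, 3200.1 and 2082 in the libraries labelled SARAWT AA 1, 2 and 3, 2175 and 2526 in SARATg vehicle 1 and 2 and 1941 in the library labelled SARATg AA 1. SARAWT vehicle 2 was lowest and the library labelled SARAWT AA 2 highest. Ighd (chromosome 12, 113406604 to 113416324, minus strand) was found in 73.2% of Ig-low cells and stood at 408, 218 and 459 CPM in SARAWT vehicle 1, 2 and 3, 531, 534 and 412 in the libraries labelled SARAWT AA 1, 2 and 3, 675 and 575 in SARATg vehicle 1 and 2 and 278 in the library labelled SARATg AA 1. It was lowest in SARAWT vehicle 2 and the library labelled SARATg AA 1, the 2 libraries from females. These 2 also held the largest shares of Ig-low cells with 3 or more C1q UMIs, 6 of 55 and 37 of 203. The next was 11 of 172 in SARAWT vehicle 3. The part of sex or of such cells in the Ighd level was not tested.

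All 14 identity factors and all 20 receptor and signalling genes of the lists, with Cd79a and Cd79b of the rule left out, were detected in Ig-low cells. Klf2, which keeps lymphocytes quiescent and circulating, stood at 1149 ± 289 CPM (SD, n = 9 libraries) in Ig-low cells, Ebf1 at 1143 ± 397 CPM, Mef2c at 572 ± 139 CPM and Foxp1 at 531 ± 115 CPM. Bank1, an adaptor of the B cell receptor, was at 332 ± 68.9 CPM and Siglecg, which dampens its signal, at 299 ± 70.3 CPM. Of the receptors for survival factors, Tnfrsf13c (BAFF receptor) was at 199 ± 81.4 CPM and Tnfrsf13b (TACI) at 135 ± 30.04 CPM. In the homing list, Ccr7 was at 132 ± 44.8 CPM and S1pr1 at 97.2 ± 34.5 CPM.

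Subset lists gave a graded picture. Fcer2a (CD23), carried by follicular B cells, was found in 37.8% of Ig-low cells and stood at 126 ± 62.95 CPM. Cr2 (CD21), which is higher on marginal zone B cells, was at 44.3 ± 18.7 CPM and Cd9 at 79.5 ± 50.1 CPM, the latter spread widely over the libraries, from 23.4 to 179 CPM. Cd5, a surface protein of B-1a cells, was at 1.53 ± 1.33 CPM, whereas Zbtb20, listed for B-1 cells but used by other cells too, was at 302 ± 122 CPM. Rag2 and Vpreb2 of the early B cell list were at 0 in all 9 libraries, Rag1 was at 0 to 2.68 CPM and Dntt at 0 to 7.43 CPM. Not all of that list was low: 4 of its 10 genes (Vpreb3, Cd93, Il7r and Myl4) had counts enough to be tested in Ig-low cells. The level of Vpreb3 is given below. Tbx21, which marks age-associated B cells, was at 0 to 2.54 CPM, whereas 5 of the 6 genes of its list (Itgax, Itgam, Cxcr3, Zeb2 and Fcrl5) had counts enough to be tested.

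Promoters of B lineage genes are known for the octamer motif, bound by Oct-2 (Pou2f2, at 477 ± 73.7 CPM in Ig-low cells) with its co-activator OCA-B (Pou2af1, at 121 ± 36.9 CPM). ATGCAAAT and its reverse complement ATTTGCAT were searched from 250 bases before to 50 after each RefSeq start site (GRCm38.p6). One or the other was in 570 of 32851 promoters (1.74%), and in 5 of the 65 genes of the 7 B cell lists with a promoter in the table (7.69%) against 532 of all 27025 genes (1.97%). These 5 are shown because they are the list genes with the motif, with 30 bases on each side, the octamer in capitals, each read 5′ to 3′ on the gene's own strand.
Cnr2 (cannabinoid receptor 2, chr4:135895111-135895178, plus strand): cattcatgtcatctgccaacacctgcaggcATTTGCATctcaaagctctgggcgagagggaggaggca
Prkcb (protein kinase C beta, chr7:122289025-122289092, plus strand): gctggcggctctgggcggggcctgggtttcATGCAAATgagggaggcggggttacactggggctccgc
Vpreb3 (a pre-B cell protein, chr10:75948225-75948292, plus strand): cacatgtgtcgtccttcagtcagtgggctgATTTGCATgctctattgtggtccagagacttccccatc
Ccr6 (a chemokine receptor, chr17:8235945-8236012, plus strand): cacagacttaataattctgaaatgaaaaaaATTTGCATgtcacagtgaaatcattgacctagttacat
Blnk (an adaptor of the B cell receptor, chr19:40994314-40994381, minus strand): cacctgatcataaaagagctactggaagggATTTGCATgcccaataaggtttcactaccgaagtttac
The match is a description of these letters and shows no binding. In Ig-low cells Vpreb3 stood at 294 ± 186 CPM, Blnk at 126 ± 24.7 CPM, Prkcb at 113 ± 16.9 CPM, Ccr6 at 54.4 ± 25.2 CPM and Cnr2 at 16.00 ± 7.36 CPM. In T cells the same genes ranged over 0 to 0.9205, 0 to 12.5, 22.4 to 38.4, 3.25 to 12.1 and 0.607 to 4.87 CPM.

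Ig-rich cells carried the genes of antibody secretion. Every one of the 281 held UMIs of Jchain and of Xbp1, the factor that enlarges the secretory pathway, 83.6% held Sdc1 (CD138), and 17.1% held Ms4a1 against 82.6% of Ig-low cells. Jchain (chromosome 5, 88519809 to 88527891, minus strand) stood at 63744 ± 8954 CPM in Ig-rich cells, Xbp1 (chromosome 11, 5520659 to 5525893, plus strand) at 879 ± 203 CPM and Sdc1 at 115 ± 27.1 CPM. In Ig-low cells Xbp1 was at 70.3 ± 15.8 CPM and Sdc1 at 4.43 ± 2.29 CPM. The summed level of the 10 plasma cell genes, which include the Jchain that helped to set the limit, was 56239 to 79217 CPM in Ig-rich cells and 481 to 2695 CPM in Ig-low cells. Mki67 or Top2a, of the proliferation list, was found in 24 of 56, 6 of 18 and 14 of 51 Ig-rich cells of SARAWT vehicle 1, 2 and 3. In the libraries labelled SARAWT AA 1, 2 and 3 it was 8 of 47, 3 of 5 and 6 of 16. SARATg vehicle 1 and 2 had 15 of 49 and 9 of 27, and the library labelled SARATg AA 1 had 2 of 12. Among Ig-low cells, which are less deep, 4 to 26 a library held either gene.

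The antibody of the Ig-rich cells was mostly IgA. IgA led in 274 of 281 (97.5%), IgG in 5, IgM or IgD in 1 and IgE in 1. The immunoglobulin genes and Jchain set the limit, so their level here is a description. Igha (chromosome 12, 113254830 to 113260236, minus strand) stood at 105502, 96367 and 108839 CPM in SARAWT vehicle 1, 2 and 3, 121909, 91077 and 78599.6 in the libraries labelled SARAWT AA 1, 2 and 3, 83799 and 69913 in SARATg vehicle 1 and 2 and 124380 in the library labelled SARATg AA 1. Kappa light chains were carried by 270 cells and lambda by 9. Igkc, the kappa constant gene (chromosome 6, 70726435 to 70726966, plus strand), stood at 412029 ± 66392 CPM. Ighm was at or under 192 CPM in Ig-rich cells of 8 libraries and at 3246 CPM in those of the library labelled SARAWT AA 3, where 1 of the 16 cells was led by IgM or IgD.

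Genes of the resting B cell were low in the same cells. Pax5 was at 0 to 15.5 CPM and Cd22 at 0 to 11.1 CPM, whereas Prdm1 (Blimp-1) was at 30.1 to 141 CPM and Tnfrsf17 (BCMA, a survival receptor of plasma cells) at 153 to 573 CPM. Cd74, the class II invariant chain, was at 2475 ± 869 CPM against 12918 ± 4315 CPM in Ig-low cells. CPM is over all UMIs, of which immunoglobulin genes and Jchain took a median of 65.8% in Ig-rich and 1.74% in Ig-low cells. This lowers the CPM of all other genes in Ig-rich cells, so the gap in Cd74 overstates that among the other UMIs. Among homing receptors Itgb7, which pairs with Itga4 for entry into gut tissue, was at 90.4 ± 72.2 CPM and Itga4 at 111 ± 72.3 CPM.

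**Figure D2:**
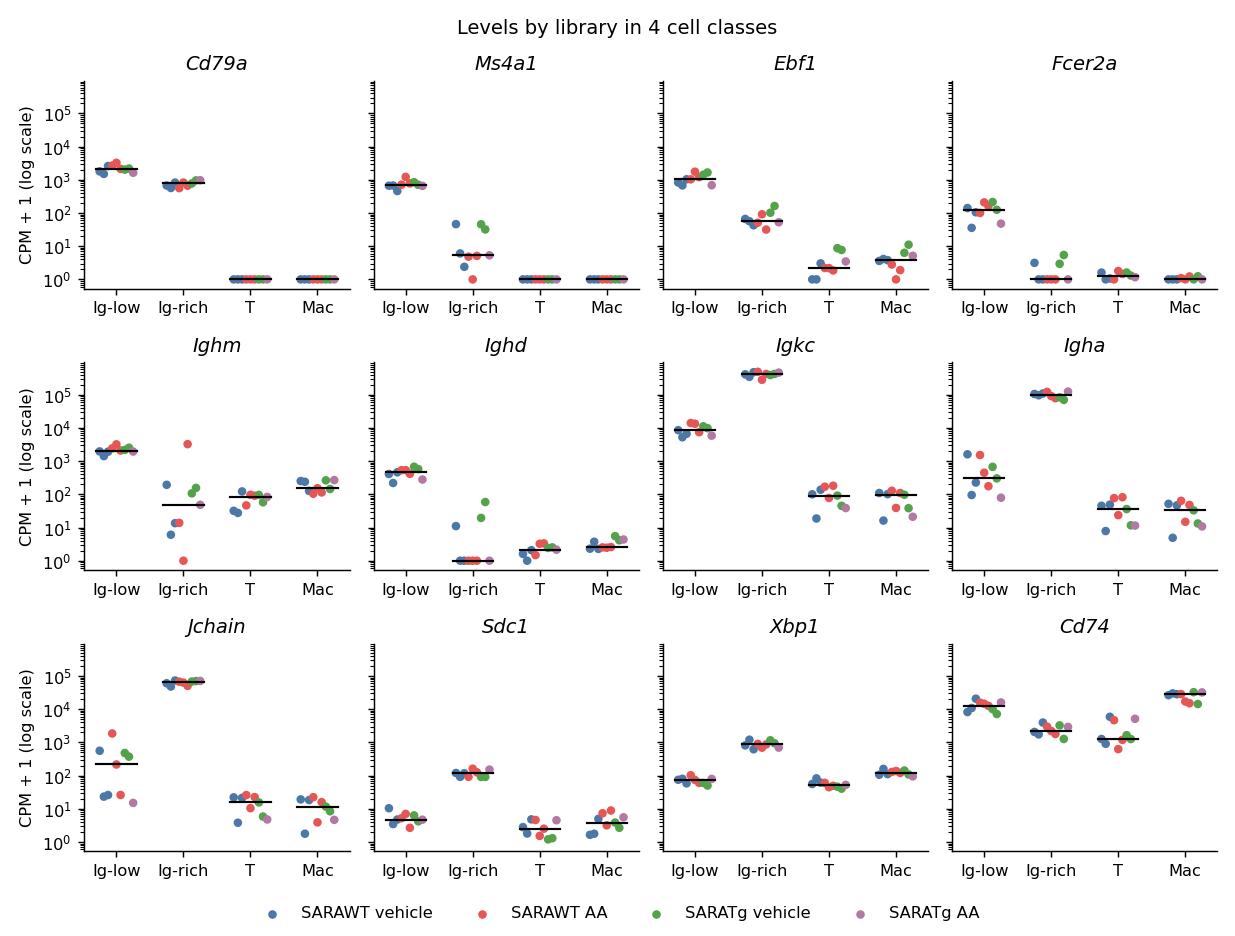
CPM plus 1 on a log scale for 12 genes in Ig-low B cells, Ig-rich B cells, T cells and macrophages, 1 point for each of 9 libraries coloured by group, with a line at the median. Cd79a and Ms4a1 are at 0 in T cells and macrophages by the rule, Ebf1, Fcer2a and Ighd are high in Ig-low cells, and Jchain, Igha and Sdc1 are high in Ig-rich cells.

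The variable genes of the Ig-rich cells were diverse. Of 271 cells with more kappa than lambda UMIs, 198 had 1 Igkv and 1 Ighv gene with at least 60% of the UMIs of its kind, and these held 179 distinct pairs over all libraries. Within a library no pair was in more than 2 cells, and 7 pairs were in 2 cells. Igkv1-110 was the most used light chain gene, in 17 cells of 6 libraries, and Ighv1-81 and Ighv3-6 the most used heavy chain genes, in 10 cells each of 4 and 6 libraries. Variable genes resemble each other and 3′ reads rarely span them, so a pair is only a rough stand-in for a clone.

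A few cells decided some of the antibody genes. In SARAWT vehicle 3, the library labelled SARAWT AA 2 and SARATg vehicle 1 a single cell gave 59.3%, 81.9% and 59.5% of all Iglc1 UMIs of the B cells. In the library labelled SARAWT AA 3 a single cell gave 9564 of 9881 Ighg1 UMIs (96.8%). The levels of Iglc1 and Ighg1 in these libraries therefore describe mostly single cells.

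Antibody RNA was also found in cells that do not make it. T cells held an Igkc UMI in 8.15% to 63.6% of cells and a Jchain UMI in 1.502% to 12.3%, at median depths of 2723 to 4943 UMIs. Ig-low cells, at median depths of 2564 to 4998 UMIs, held a Jchain UMI in 1.66% to 12.7% and an Igha UMI in 3.64% to 43.1%, against 3.65% to 37.9% of T cells. The ranges of these shares overlap with those of T cells, whereas the levels were higher in Ig-low cells by widely different amounts. Jchain stood at 1862 CPM in Ig-low and 25.003 CPM in T cells of the library labelled SARAWT AA 1, but at 25.04 and 20.4 CPM in those of SARAWT vehicle 3. Igha stood at 1604 and 44.1 CPM in SARAWT vehicle 1 and at 174 and 80.8 CPM in the library labelled SARAWT AA 3. Whether the cells close to the limit of 20% carried the high sums was not tested. Ighd behaved otherwise, with a UMI in 51.2% to 82.1% of Ig-low cells and at most 1.42% of T cells. Ighm was found in 8.33% to 31.7% of T cells and 53.5% to 79.3% of macrophages.

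The number of B cells varied widely between libraries. They numbered 194, 73 and 223 in SARAWT vehicle 1, 2 and 3, 277, 366 and 220 in the libraries labelled SARAWT AA 1, 2 and 3, 882 and 983 in SARATg vehicle 1 and 2 and 215 in the library labelled SARATg AA 1. As a share of kept cells this was 2.199%, 0.726% and 3.21% in SARAWT vehicle 1, 2 and 3, 3.79%, 9.14% and 4.16% in the libraries labelled SARAWT AA 1, 2 and 3, 14.8% and 16.5% in SARATg vehicle 1 and 2 and 2.91% in the library labelled SARATg AA 1. SARATg vehicle libraries were highest, SARAWT vehicle 2 was lowest, and the 3 libraries labelled SARAWT AA, 1 of them with a Zfyve9 level that goes against its label, lay above the 3 SARAWT vehicle libraries. Exact 95% binomial intervals, which cover counting error only, ran from 0.569% to 0.912% for the lowest and from 15.5% to 17.4% for the highest.

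Whether AA changed the share of B cells was asked in SARAWT mice. The share of kept cells was 2.05% ± 1.25 (SD, n = 3) after vehicle and 5.70% ± 2.99 (SD, n = 3) after AA, a difference of 3.65 points with a two-sided exact permutation p = 0.1, the smallest that 3 against 3 libraries can give. The fraction of a sort depends on everything else in it, and the share of leukocytes moved too, from 14.5% in SARAWT vehicle 1 to 84.7% in the library labelled SARAWT AA 3. Among Ptprc-positive cells B cells made up 11.4%, 3.09% and 2.74% in SARAWT vehicle 1, 2 and 3, 3.52%, 10.95% and 3.95% in the libraries labelled SARAWT AA 1, 2 and 3, 23.3% and 22.4% in SARATg vehicle 1 and 2 and 3.38% in the library labelled SARATg AA 1. These groups overlapped, with 5.73% ± 4.88 (SD, n = 3) after vehicle and 6.14% ± 4.17 (SD, n = 3) after AA (exact permutation p = 0.6). Without the library labelled SARAWT AA 1 the difference was 4.60 points of kept cells and 1.73 points of Ptprc-positive cells, and without the library labelled SARAWT AA 2 it was 1.93 and -1.99 points.

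SARATg and SARAWT mice were compared after vehicle. The share of kept cells was 15.7% on average in 2 SARATg and 2.05% in 3 SARAWT libraries, a difference of 13.6 points, and among Ptprc-positive cells it was 22.8% against 5.73%. No SARATg vehicle library overlapped with SARAWT vehicle on either scale, and both had an exact permutation p = 0.2, the smallest that 2 against 3 can give. In the single library labelled SARATg AA 1 the shares were 2.91% of kept and 3.38% of Ptprc-positive cells, within the range of the SARAWT libraries, and it is also the library with a low Zfyve9 level.

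Ig-low and Ig-rich cells did not follow each other. As a share of kept cells, Ig-low cells were 1.56%, 0.547% and 2.48% in SARAWT vehicle 1, 2 and 3, 3.14%, 9.02% and 3.85% in the libraries labelled SARAWT AA 1, 2 and 3, 14.01% and 16.02% in SARATg vehicle 1 and 2 and 2.74% in the library labelled SARATg AA 1. Ig-rich cells, on the same scale, were 0.635%, 0.179% and 0.735% in SARAWT vehicle 1, 2 and 3, 0.642%, 0.125% and 0.302% in the libraries labelled SARAWT AA 1, 2 and 3, 0.824% and 0.452% in SARATg vehicle 1 and 2 and 0.162% in the library labelled SARATg AA 1. SARATg vehicle had many more Ig-low cells, whereas its Ig-rich shares of 0.824% and 0.452% lay within or just above the range of SARAWT vehicle. Of the B cells, Ig-rich cells made up 28.9%, 24.7% and 22.9% in SARAWT vehicle 1, 2 and 3, 16.97%, 1.37% and 7.27% in the libraries labelled SARAWT AA 1, 2 and 3, 5.56% and 2.75% in SARATg vehicle 1 and 2 and 5.58% in the library labelled SARATg AA 1. Among cells that met the rule the 3 SARAWT vehicle libraries lay above all others, and no test is given because the limit was chosen on these cells. A Cd3 UMI had kept further cells past the limit out of the B cells. These were 11, 0 and 29 in SARAWT vehicle 1, 2 and 3. In the libraries labelled SARAWT AA 1, 2 and 3 they were 53, 2 and 9. With every kept cell past the limit counted, the library labelled SARAWT AA 1 was highest, at 1.39% of kept cells. SARAWT vehicle 1, 2 and 3 were then at 0.771%, 0.179% and 1.25%. Of cells with 3 or more B cell UMIs and a Cd3 UMI, 53 of 90 passed the limit in the library labelled SARAWT AA 1. In SARAWT vehicle 2 it was 0 of 3. Counted as B cells, these would put that AA library above SARAWT vehicle 2, so the order holds only under the rule as set.

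**Figure D3:**
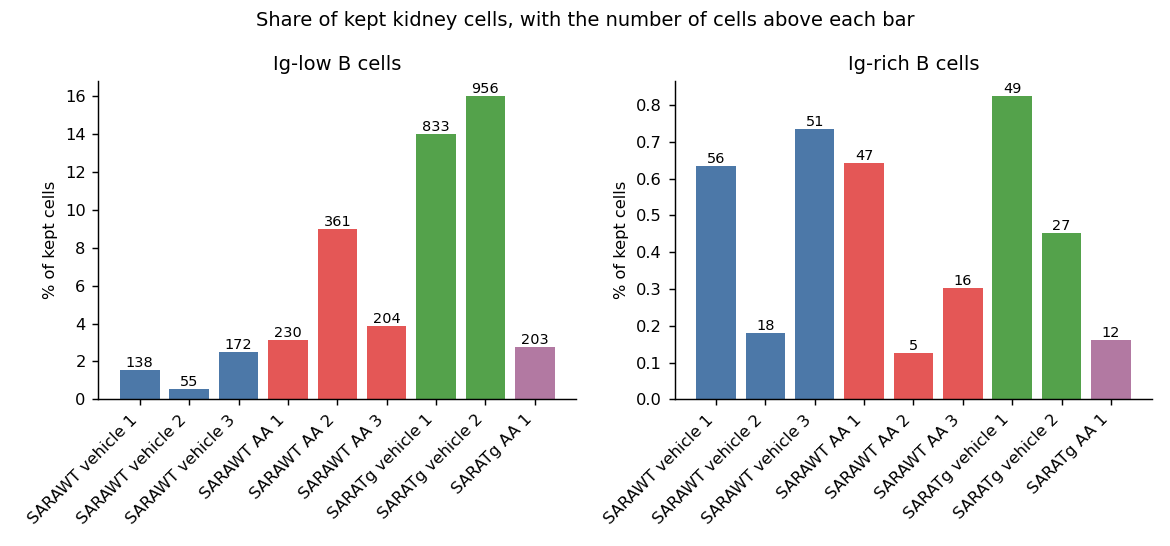
Percentage of kept kidney cells (vertical axes, each from 0) that were Ig-low (left) or Ig-rich (right) B cells in each of 9 libraries coloured by group, with the number of cells above each bar. Ig-low cells reach 14.01% and 16.02% in the 2 SARATg vehicle libraries, and Ig-rich cells stay at or under 0.824% in all 9.

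The depth of the data followed this split. Of the B cells' UMIs, Ig-rich cells held 65.2%, 49.5% and 64.3% in SARAWT vehicle 1, 2 and 3, 56.99%, 6.97% and 29.1% in the libraries labelled SARAWT AA 1, 2 and 3, 20.8% and 10.8% in SARATg vehicle 1 and 2 and 14.7% in the library labelled SARATg AA 1. In the SARAWT vehicle libraries 18 to 56 cells thus gave 49.5% to 65.2% of the summed UMIs. Values for Ig-low cells alone are therefore given beside the tests on sums.

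Phenotype shares were tested between SARAWT AA and vehicle as a family of 7. Lambda light chains made up 2.80%, 2.22% and 6% of typed B cells in SARAWT vehicle 1, 2 and 3 and 7.51%, 9.57% and 7.08% in the libraries labelled SARAWT AA 1, 2 and 3. A typed cell had at least 3 light chain UMIs, at least 80% of them of 1 kind. Many cells were not typed: of 3088 Ig-low cells with 3 such UMIs over the 9 libraries, 1401 were kappa, 120 lambda and 1567 mixed, with 48, 22 and 66 mixed cells in SARAWT vehicle 1, 2 and 3 and 98, 176 and 105 in the libraries labelled SARAWT AA 1, 2 and 3. Class-switched heavy chains made up 30.9%, 30.4% and 33.3% after vehicle and 23.99%, 3.88% and 17.1% after AA. Among cells that met the rule neither overlapped between the groups. Each had an exact permutation p = 0.1 (0.233 adjusted over the 7 with the Benjamini-Hochberg method), so none passed. Cells left out for a Cd3 UMI are missing from these shares and from the Jchain share below. Those with at least 20% immunoglobulin UMIs numbered 53 in the library labelled SARAWT AA 1 and 0 in SARAWT vehicle 2. These cells were not typed, so whether the groups stay apart with them counted was not tested. In Ig-low cells, from which the limit removed most IgA cells, the switched share differed by 0.103 points. The difference in the switched share over all B cells was -16.6 points, and it was -21.1 points without the library labelled SARAWT AA 1 and -11.03 points without the library labelled SARAWT AA 2. For lambda it was 4.38 points, and 4.65 and 3.62 points without these.

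The shares read from single UMIs were compared with every cell thinned to 1000 UMIs, which left out 2 cells of the library labelled SARAWT AA 2. Jchain was then found in 30.9%, 24.7% and 23.8% of B cells after vehicle and 20.2%, 2.20% and 10.9% after AA (exact permutation p = 0.1, adjusted p = 0.233). Without thinning it was found in 30.2% ± 4.26 after vehicle and 16.4% ± 12.3 after AA (SD, n = 3, exact permutation p = 0.2). The groups then overlapped, with 27.1% in the library labelled SARAWT AA 1 and 26.03% in SARAWT vehicle 2. In Ig-low cells, a class that Jchain and the immunoglobulin genes helped to define, the thinned Jchain difference was 0.0742 points. Ighd was found in 27.6% ± 8.82 (SD, n = 3) of thinned cells after vehicle and 36.2% ± 3.599 (SD, n = 3) after AA, and in 49.3% and 65.8% without thinning. The thinned difference of 8.69 points was 3.81 without SARAWT vehicle 2 and 12.4 without SARAWT vehicle 3. In Ig-low cells Ighd was found in 37.8% and 39.1%. Cd69, Cd83 and 2 or more UMIs of the proliferation list differed by 2.55, 1.88 and 0.418 points, with exact permutation p of 0.4, 0.6 and 0.8. Leaving out each library in turn, the differences ran from 0.967 (without SARAWT vehicle 3) to 3.94 (without the library labelled SARAWT AA 1) for Cd69 and from 0.321 (without SARAWT vehicle 2) to 4.56 (without SARAWT vehicle 3) for Cd83.

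Expression was then tested on the UMIs of the B cells summed in each library, with edgeR's quasi-likelihood test on all 9 libraries. For AA against vehicle in SARAWT mice 0 of 11510 genes (0.0%) passed an adjusted p of 0.05. DESeq2 called 444, and edgeR gave 2236 an unadjusted p under 0.05. The lowest edgeR adjusted p was 0.146. Without the libraries labelled SARAWT AA 1 and SARATg AA 1 it called 0 of 10324, with 2044 at an unadjusted p under 0.05, and without the libraries from females 0 of 10208, with 1495.

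This lowest adjusted p was shared by genes of 10 lists, from identity factors and receptor genes to immediate early genes and p53 targets. Klf2, listed with the identity factors and the follicular genes, stood at 345, 460.3 and 369.7 CPM in SARAWT vehicle 1, 2 and 3 and 713, 1292 and 1013 CPM in the libraries labelled SARAWT AA 1, 2 and 3. The groups did not overlap, and the log2 fold change was 1.16 ± 0.20 (SE; edgeR adjusted p = 0.146). S1pr1, of the homing receptors, stood at 28.99, 27.5 and 23.2 CPM in SARAWT vehicle 1, 2 and 3 and 43.4, 115 and 86.8 CPM in the libraries labelled SARAWT AA 1, 2 and 3, again without overlap, with a log2 fold change of 1.37 ± 0.24 (edgeR adjusted p = 0.146). Ighm stood at 808, 717 and 693 CPM in SARAWT vehicle 1, 2 and 3 and 1051, 2977 and 2419.9 CPM in the libraries labelled SARAWT AA 1, 2 and 3, with a log2 fold change of 1.28 ± 0.29 (edgeR adjusted p = 0.146). These genes were picked among those with the lowest adjusted p, so the lack of overlap adds no support. How many of all genes separate vehicle from AA in this way was not counted.

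The B cell lists did not all lie on 1 side. All 7 follicular genes were higher after AA with an unadjusted p under 0.05, as were 9 of 14 identity factors and 12 of 20 receptor genes (Cd79a and Cd79b left out), against 849 higher and 1387 lower of all 11510. The median log2 fold change was 0.98, 0.73 and 0.62 in these lists and -0.01 over all genes. All 10 plasma cell genes were lower, 2 of them with an unadjusted p under 0.05, with a median of -0.84. Lower medians were also found for the lists of B-1 cells (7 of 8 genes lower, -0.18), germinal centre B cells (5 of 7, -0.28) and early B cells (3 of 4, -0.52). Prdm1 stood at 35.5, 63.8 and 58.9 CPM in SARAWT vehicle 1, 2 and 3 and 35.02, 15.4 and 17.2 CPM in the libraries labelled SARAWT AA 1, 2 and 3, with a log2 fold change of -1.25 ± 0.50 (edgeR adjusted p = 0.224). These shifts moved with the share of UMIs from Ig-rich cells given above, whose part in them was not tested.

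In Ig-low cells alone 0 of 10572 genes passed by edgeR, with 1834 at an unadjusted p under 0.05. The medians were then 0.64 for the follicular list, 0.49 for the identity factors, 0.44 for the 20 receptor genes and 0.47 for the plasma cell list, which includes Jchain, and 0.02 over all genes. An unadjusted p under 0.05 was then reached by 2 of 7 follicular genes, 6 of 14 identity factors and 10 of 20 receptor genes, and by 4 of 10 plasma cell genes, all these higher, against 623 higher and 1211 lower of all 10572. Klf2 in Ig-low cells stood at 852, 840.0 and 989 CPM in SARAWT vehicle 1, 2 and 3 and 1585, 1377 and 1351 CPM in the libraries labelled SARAWT AA 1, 2 and 3 and kept its groups apart, with a log2 fold change of 0.83 ± 0.21 (edgeR adjusted p = 0.124). S1pr1 in Ig-low cells had a log2 fold change of 0.96 ± 0.22 and Ccr7 of 0.89 ± 0.26 (edgeR adjusted p = 0.118 and 0.153). How many of all genes keep their groups apart in Ig-low cells, as Klf2 does, was not counted either.

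Of the cytokine genes, Tnf was low in every library and Ltb was not. Tnf stood at 2.34, 2.501 and 1.79 CPM in SARAWT vehicle 1, 2 and 3 and 8.39, 9.11 and 14.3 CPM in the libraries labelled SARAWT AA 1, 2 and 3, with a log2 fold change of 2.09 ± 0.41 over all B cells and 1.88 ± 0.46 in Ig-low cells (edgeR adjusted p = 0.146 and 0.1201). Ltb (lymphotoxin beta, which organises lymphoid tissue) is also made by T cells, where it was at 614 to 1675 CPM. In the B cells it stood at 264, 165 and 222 CPM in SARAWT vehicle 1, 2 and 3 and 309, 1546 and 792 CPM in the libraries labelled SARAWT AA 1, 2 and 3, with 1.68 ± 0.43. Tgfb1 stood at 59.9, 60.03 and 45.1 CPM in SARAWT vehicle 1, 2 and 3 and 83.5, 130.4 and 111 CPM in the libraries labelled SARAWT AA 1, 2 and 3, with 0.80 ± 0.16. None of the 3 passed by edgeR with all libraries, and how many of all genes separate vehicle from AA as these do was not counted. T cells were 4.08%, 4.63% and 47.9% of kept cells in SARAWT vehicle 1, 2 and 3 and 52.97%, 47.3% and 59.8% in the libraries labelled SARAWT AA 1, 2 and 3. The T cell markers summed to 20.6, 10.01 and 54.9 CPM and to 24.8, 63.8 and 73.2 CPM in the B cells of the same libraries, with a median log2 fold change of 1.09 over the 8 tested, 2 of them higher at an unadjusted p under 0.05. Without SARAWT vehicle 3, Lck of that list passed with 2.53 (edgeR adjusted p = 0.0324). Their part in the cytokine levels was not tested. Il10 was at 0 to 2.23 CPM in Ig-low cells.

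Leaving out SARAWT vehicle 3, the vehicle library that resembled the AA libraries, changed the result. Of 11157 genes 1126 (10.1%) then passed by edgeR, 368 higher (3.3%) and 758 lower (6.79%) after AA, from 2 vehicle libraries of which 1 was from a female. This fit was singled out after the data were seen. Removing the vehicle library most like the AA libraries can by itself widen the difference between the groups. The calls without it are therefore a description and not support for an effect of AA. Klf2 passed with a log2 fold change of 1.33 ± 0.18 (edgeR adjusted p = 0.0167), Ighd with 1.34 ± 0.28 (0.0302) and Tnf with 2.12 ± 0.48 (0.0363). By list, 8 of 14 identity factors, 8 of the 20 receptor genes that the rule did not read, 8 of 14 class II genes, 6 of 13 homing receptors and 4 of 7 follicular genes passed, all higher, against the 3.3% of all genes. In the lists of plasma cells (10 tested), marginal zone (8), B-1 (8), germinal centre (6), age-associated (5) and early B cells (4) none passed.

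Class II genes show how much the one library mattered. H2-Aa stood at 1140.0, 1471 and 2437 CPM in SARAWT vehicle 1, 2 and 3 and 1825, 3830.1 and 2739.9 CPM in the libraries labelled SARAWT AA 1, 2 and 3. SARAWT vehicle 3 lay among the AA libraries, so the log2 fold change was 0.42 ± 0.41 with it and 1.09 ± 0.23 without it (edgeR adjusted p = 0.613 and 0.0304). Cd83, an activation marker, stood at 21.5, 28.8 and 55.8 CPM in SARAWT vehicle 1, 2 and 3 and 54.7, 108 and 66.01 CPM in the libraries labelled SARAWT AA 1, 2 and 3, and moved from 0.77 ± 0.44 to 1.61 ± 0.25 (edgeR adjusted p = 0.376 and 0.01995). Of the 18 activation genes, 16 were tested and 4 passed without the library, all higher, against 3.3% of all genes. The 14 class II genes tested had a median log2 fold change of 1.03 without it and 0.40 with it, and of 0.19 in Ig-low cells with all libraries, where 1 had an unadjusted p under 0.05. Macrophages carry class II too, and without the library all 12 macrophage genes were higher after AA in the B cells, with a median of 1.08 and 6 at an unadjusted p under 0.05, though none passed, against 1407 higher and 1804 lower of all 11157 at that p. Their part in the class II calls was not tested.

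Several of the largest changes without that library were in genes that other cells express. Ccl12, a chemokine of macrophages, had a log2 fold change of 6.12 and Ccl5, a chemokine of T and NK cells, 4.73. Ccl8, another macrophage chemokine, passed too. Ccl8 stood at 0 CPM in SARAWT vehicle 1 and 2, 504 in SARAWT vehicle 3 and 140, 343 and 152 in the libraries labelled SARAWT AA 1, 2 and 3, so the left-out library was the highest. Trim5, Trim30d, Gdpd3 and Ifi206, with 8.44, 8.13, 6.11 and 4.31, were higher in B cells than in all kept cells. Gdpd3 stood at 1.40 and 2.50 CPM in SARAWT vehicle 1 and 2 but at 98.2 CPM in SARAWT vehicle 3. It was at 165, 85.5 and 95.7 CPM in the libraries labelled SARAWT AA 1, 2 and 3. In SARATg vehicle 1 and 2, without AA, it was at 164 and 181 CPM. Slc22a6, the organic anion transporter of the proximal tubule, had -5.68 (edgeR adjusted p = 0.01995). Single antibody genes were also among them, such as Igkv6-13 with -7.60, which stood at 70.6, 395 and 3.57 CPM in SARAWT vehicle 1, 2 and 3. Of the 758 lower genes 684 were among the 3050 whose level in B cells was under 50% of that in all kept cells, and of the 368 higher genes 9 were.

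**Figure D4:**
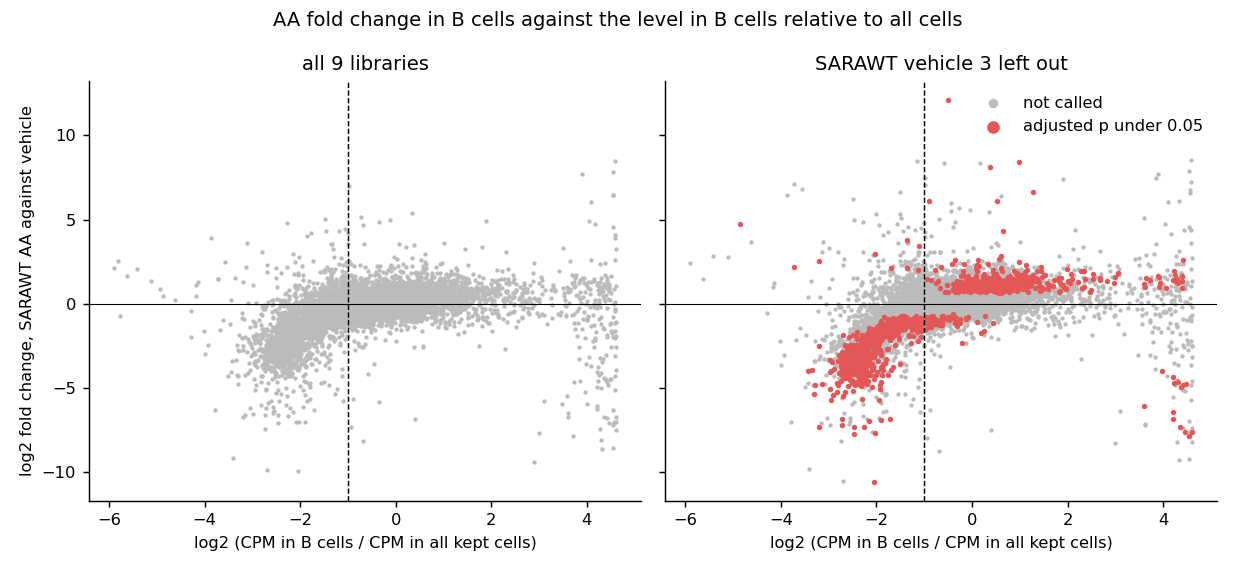
Log2 fold change of AA against vehicle in SARAWT B cells (vertical axis) against the log2 ratio of the CPM in B cells to that in all kept cells (horizontal axis), 1 point a gene, with all 9 libraries (left) and without SARAWT vehicle 3 (right), red where the adjusted p is under 0.05 and a dashed line at a ratio of 50%. No gene is red on the left, and on the right 684 of 758 lower calls lie left of the line.

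Transcripts of other cells were in the B cells of every library. The 12 proximal tubule genes summed to 25603, 8833 and 3072 CPM in Ig-low cells of SARAWT vehicle 1, 2 and 3 and to 102, 3012 and 1078 CPM in those of the libraries labelled SARAWT AA 1, 2 and 3. T cells of the same libraries held 24750, 10591 and 2176 CPM and 1080, 2997 and 1147 CPM of these genes. Kap, an androgen-regulated protein of the male tubule, alone gave 16197 CPM in SARAWT vehicle 1 and 1.48 CPM in the library labelled SARATg AA 1. The level in B cells thus moved with the level in T cells, and its part in the calls was not tested.

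Blood cells gave a different order. The 12 macrophage genes summed to 1430 to 16811 CPM in Ig-low cells, highest in the library labelled SARATg AA 1 and then in SARAWT vehicle 3, and all 12 were detected. The 8 neutrophil genes reached 9208 CPM in SARAWT vehicle 2 and 2107 CPM in the library labelled SARAWT AA 1 and stayed at or under 642 CPM in the other 7. The T cell list, of which the 3 rule genes are at 0, summed to 18.1 to 136 CPM. Of all B cells 1538 held a UMI of C1qa, C1qb, C1qc, Lyz2, Lrp2, Slc34a1, Miox, Kdr, Trac, Trbc1 or Trbc2, a narrower set of markers that leaves out Kap and most of the tubule list, and without those cells 0 of 7046 genes passed for AA by edgeR, with 696 at an unadjusted p under 0.05.

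**Figure D5:**
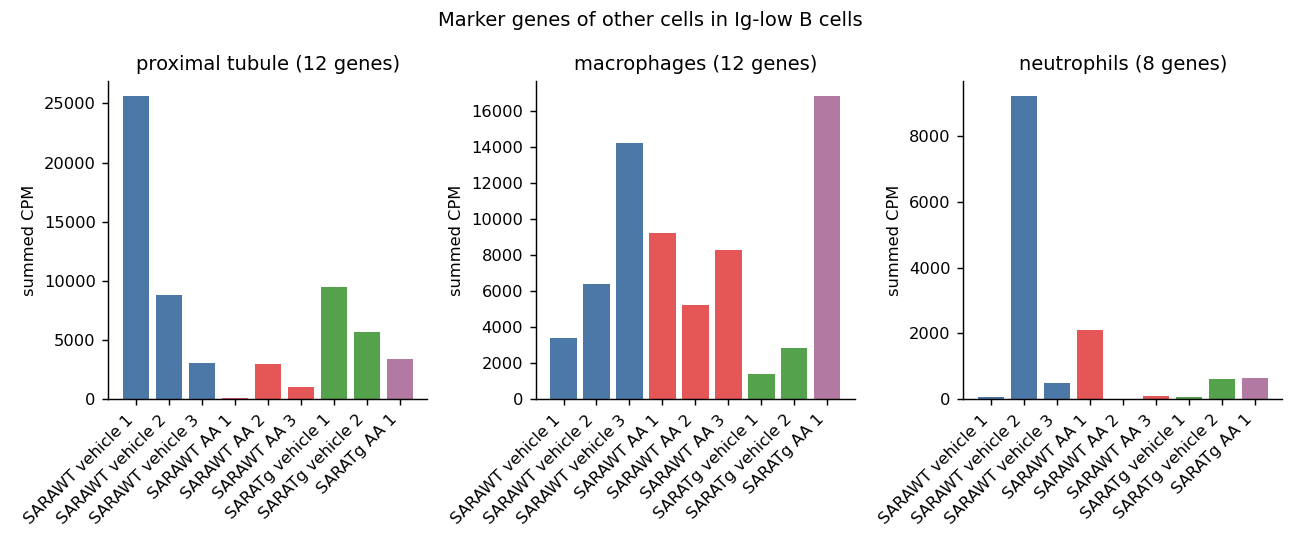
Summed CPM (vertical axes, each from 0) of 12 proximal tubule, 12 macrophage and 8 neutrophil marker genes in Ig-low B cells of each of 9 libraries, coloured by group. Tubule genes are highest in SARAWT vehicle 1 (25603 CPM) and lowest in the library labelled SARAWT AA 1 (102 CPM), and macrophage genes are highest in the library labelled SARATg AA 1.

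SARATg against SARAWT after vehicle was tested in the same fit, and shares the SARAWT vehicle libraries with the AA comparison. By edgeR 0 of 11510 genes (0.0%) passed, DESeq2 called 105, and 1385 were at an unadjusted p under 0.05 by edgeR. Without the 2 libraries whose Zfyve9 goes against the label 0 of 10324 passed, with 1392. S1pr1 stood at 28.99, 27.5 and 23.2 CPM in SARAWT vehicle 1, 2 and 3 and 98.97 and 137 CPM in SARATg vehicle 1 and 2, with a log2 fold change of 1.68 ± 0.26 (edgeR adjusted p = 0.341). Pax5 stood at 58.9, 38.8 and 47.8 against 183 and 197 CPM, with 1.46 ± 0.30. Sdc1, lower in SARATg, stood at 80.9, 46.3 and 76.3 against 22.98 and 12.7 CPM, with -2.44 ± 0.67. By edgeR none of these genes passed, and how many of all genes separate the 2 groups as they do was not counted.

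The share of UMIs from Ig-rich cells was also lower in SARATg vehicle, and its part was not tested. The median log2 fold change in SARATg was 1.07 for the 7 follicular genes, of which all had an unadjusted p under 0.05, 0.89 for the identity factors and -1.87 for the plasma cell genes, against -0.05 over all genes. In Ig-low cells alone, with 0 of 10572 genes passed by edgeR and 790 at an unadjusted p under 0.05, these were 0.59, 0.50 and 0.30. Markers of other cells differed too in the Ig-low cells. Macrophage genes had a median of -2.05 (12 of 12 lower), endothelial genes of 2.87 (8 of 8 higher, 5 at an unadjusted p under 0.05) and erythroid genes of 7.04 (4 of 4 higher), and their part was not tested. Erythroid genes summed to 913 CPM in SARATg vehicle 1 and to at most 19.0 CPM in the other 8 libraries.

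Genes of TGF-β signalling were read because SARA was first described there. Over the 9 libraries Tgfbr2 stood at 82.5 ± 12.7 CPM, Tgfbr1 at 46.3 ± 11.3 CPM and Smad7 at 74.9 ± 20.3 CPM (SD, n = 9) in Ig-low cells. Zfyve9 in SARATg against SARAWT vehicle had a log2 fold change of 2.87 ± 1.35 (edgeR adjusted p = 0.442) and did not pass, with a UMI in 36.4% and 20.8% of SARATg vehicle B cells and 5.67%, 16.4% and 0.897% of SARAWT vehicle B cells. Of the 11 genes in this list 0 passed in either comparison by edgeR, with 3 at an unadjusted p under 0.05 for AA and 1 for SARATg, against 2236 and 1385 of all 11510. For AA without SARAWT vehicle 3, 2 passed, 1 higher and 1 lower, against 10.1% of all genes. Zfyve16, a relative of Zfyve9, stood at 23.4, 21.3 and 4.46 CPM in SARAWT vehicle 1, 2 and 3, 7.296, 10.5 and 6.54 in the libraries labelled SARAWT AA 1, 2 and 3, 14.3 and 15.8 in SARATg vehicle 1 and 2 and 15.2 in the library labelled SARATg AA 1.

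Genes of DNA damage, interferon and cell division were read as lists. Of 18 tested p53 targets, read because AA forms DNA adducts, 1 was higher and 1 lower after AA at an unadjusted p under 0.05, with a median log2 fold change of -0.19. Cdkn1a, the cell cycle inhibitor p21, stood at 12.6, 11.3 and 30.4 CPM in SARAWT vehicle 1, 2 and 3 and 20.4, 15.4 and 20.2 CPM in the libraries labelled SARAWT AA 1, 2 and 3, and at 93.1 CPM in the library labelled SARATg AA 1. Of 21 interferon-stimulated genes 2 were higher and 0 lower, with a median of 0.32, and of 20 proliferation genes 1 was higher and 1 lower, shares close to the 849 higher and 1387 lower of all 11510 genes, or under them. None passed the test by edgeR with all libraries. Without SARAWT vehicle 3, 1 of the 18 p53 targets passed, higher after AA, and none of the interferon-stimulated or proliferation genes did, against the 3.3% of all genes that passed as higher. Of the 20 interferon-stimulated genes tested there, 16 were higher, 3 of them at an unadjusted p under 0.05, with a median of 0.76. Their lowest edgeR adjusted p was 0.0564. Of the 20 proliferation genes 14 were higher, 1 of them at that p, with a median of 0.71. Over all 11157 genes 1407 were higher at that p.

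The difference of the AA effect between genotypes rested on the single library labelled SARATg AA 1, which has no spread of its own, so the test assumes that it varies like the libraries of the other groups. By edgeR 2 of 11510 genes (0.0174%) passed, Fxyd4 and Cox6a2, both higher in that library, with log2 differences of 6.41 ± 0.61 and 6.48 ± 0.69 (SE; edgeR adjusted p = 0.0368 and 0.0465). Fxyd4 is an ion transport regulator of the collecting duct and Cox6a2 a muscle form of a respiratory chain subunit. Fxyd4 stood at 115 CPM there and at 1.25 to 2.81 CPM in the other 8 libraries, and 121 of its 182 UMIs came from 1 of 215 cells. Cox6a2 stood at 51.3 CPM there, from 81 UMIs in 11 cells, and at 1.41 to 15.01 CPM elsewhere. Without the library the contrast cannot be computed. With a replicate block, with a marker sum of at least 5 and in 7 of the 8 fits that leave out 1 other library, 0 genes passed. In the same contrast all 7 follicular genes were lower with an unadjusted p under 0.05, with a median log2 difference of -2.22, and the 14 identity factors had a median of -1.55, against 0.03 over all genes, of which 940 were higher and 745 lower at that p. All 12 macrophage genes were higher, with a median log2 difference of 2.80 and 7 at an unadjusted p under 0.05, and 37 of the 203 Ig-low cells of that library held 3 or more C1q UMIs. Their part in the lower levels of the B cell lists was not tested. None of these genes passed, and the library is also the one with a low Zfyve9 level and 1 of those from females.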

How the data were processed

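The authors sequenced 9 kidney and 8 skin libraries of GFP-sorted cells with 10x 3′ chemistry and deposited UMI counts per gene and barcode, made with Cell Ranger 3.0.2 on mm10 per the submitters' processing notes, which also name Seurat 2.3.4. The file headers give 3.0.2 for all kidney libraries and 3.1.0 or 4.0.0 for those of skin. Only the kidney libraries were compared. No doublet caller was run, and the rule on Cd3 genes removes B and T cell doublets only. Cells were kept and chosen by the rule given in the report, and the depth is a median of 2600 to 8378 UMIs per B cell. UMIs of the B cells were summed per library and tested with edgeR 4.0.16 (quasi-likelihood, filterByExpr, TMM factors, all 9 libraries in 1 fit by group, Benjamini-Hochberg adjustment, 0.05) in R 4.3.3. DESeq2 1.42.0 was an alternative. Shares were tested over libraries with exact permutation tests in scipy 1.17.1 on Python 3.11.15. The edgeR step was tested on simulated data. Replicate numbers in the labels were not used to pair the libraries in the main tests.

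The members and gene lists were chosen with earlier results of these data known. Named genes were members of those lists, the genes of the rule and, for each contrast and direction, at most 10 called genes of largest fold whose groups did not overlap and reached 10 CPM. Antibody variable genes were otherwise named after their values were seen. Some list genes are not reported here.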

Additional observations from a re-analysis of the deposited data

Results flagged for a closer look

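Fxyd4 and Cox6a2 had a log2 difference of the AA effect between genotypes of 6.41 and 6.48 (edgeR adjusted p = 0.0368 and 0.0465), from the test of that difference, which rests on 1 SARATg AA library whose Zfyve9 level goes against its label. In that library 66.5% of the Fxyd4 UMIs of B cells came from 1 cell and 22.2% of the Cox6a2 UMIs from 1 cell. In 7 of the 8 alternatives that leave out 1 library, 0 genes passed.

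Outside the B cells, 133 kept kidney cells had at least 20% of their UMIs from immunoglobulin genes. A Cd3 UMI kept 122 of them out of the rule, and the other 11 had fewer than 3 UMIs of the B cell genes. They numbered 55 in the library labelled SARAWT AA 1 and 36 in SARAWT vehicle 3, and with them 414 kidney cells were rich in antibody RNA. Whether they are doublets was not tested.

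In the skin libraries of the series, which the comparisons do not use, 112 of 30085 kept cells (0.372%) met the same rule, with 0 to 50 in a library.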

How the results depend on the processing

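Of 170 results recomputed under an alternative, 136 were counted as unchanged, 21 as moved and 13 as turned in direction. For shares, unchanged refers to the direction and not to the size. The AA difference in the Ighd share was 8.69 points thinned to 1000 UMIs and 16.5 points unthinned. That in the thinned Cd83 share was 1.88 points with all libraries and 0.321 points without SARAWT vehicle 2. For AA in SARAWT B cells, DESeq2 called 444 genes, no filter on low counts 340, and leaving out each library in turn 0 to 1126, the latter without SARAWT vehicle 3. Ig-low cells without that library gave 999. For SARATg after vehicle, DESeq2 called 105, and no library left out gave a call. For the difference between genotypes, DESeq2 called 107, no filter 7, Ig-low cells 6 and Ig-low cells without SARAWT vehicle 3 10. It was 1 under the stricter cell filter (500 genes, 10% mitochondrial) and 1 among genes at least 50% as high in B cells as in all kept cells. It was 0 with a marker sum of at least 5, 0 without cells holding a UMI of 11 markers of other cells, and 0 to 3 without each library. With a replicate block it was 0, and the block changed no other call (share of kept cells 3.65 points, exact permutation p = 0.25). Same-numbered vehicle and AA libraries correlated at -0.257, 0.0677 and -0.0783, and differently numbered ones at -0.276 to 0.317. With so few libraries these values cannot show whether any were paired.

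The AA difference of the Ptprc-positive share ran from -1.99 to 3.23 points without each library, and was -0.423 with a marker sum of at least 2 and -0.0891 with the stricter cell filter. The proliferation share ran from -0.422 to 1.24 without each library, and was -8.57 unthinned and -0.968 in Ig-low cells. Cd69 was -1.19 thinned to 500 UMIs and -1.56 unthinned. In Ig-low cells the switched share was 0.103 and the Jchain share 0.0742. The cause was not tested in any of these. The alternatives with Ig-low cells, without members holding 3 or more C1q UMIs, without the libraries whose Zfyve9 goes against the label and without those from females were chosen after seeing the data. Leaving out each library in turn was planned, but reading genes and lists from the fit without SARAWT vehicle 3 was also chosen after seeing the data. A covariate for the Cell Ranger version was not run, since all kidney libraries have the same one. Few libraries a group limit the comparisons, and those over all B cells also rest on 5 to 56 Ig-rich cells a library.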
